A study of Mus musculus with 12 samples.

Results

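The genes described here carry out the unfolded protein response and the integrated stress response, and were measured in primary hippocampal cultures of the mouse that carried either extra miR-148a-3p, added as a mimic, or a control oligonucleotide. The list was fixed by gene symbol, with earlier results of these data known, and holds 38 members of the 48709 genes in the count tables. By their best known regulator, 13 members belong to the ATF6 branch, 11 to the XBP1 branch and 13 to the ATF4 branch, and 1, Creb3l2, encodes a transcription factor of the OASIS family. All 38 members passed the filter on low counts and were among the 18847 genes tested.

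The endoplasmic reticulum (ER) folds and modifies secreted and membrane proteins, and the unfolded protein response matches its capacity to the load. IRE1, encoded by Ern1, splices the Xbp1 transcript so that it encodes an active factor. ATF6 is cut out of the membrane to become a transcription factor, and PERK, encoded by Eif2ak3, phosphorylates eIF2, which lowers general translation while translation of ATF4 rises. ATF4 also answers to other eIF2 kinases, for example when amino acids run short, and this wider pathway is the integrated stress response. Neurons and glial cells both use these pathways.

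Hippocampi of embryonic day 17 embryos of the CD1 background were pooled and cultured, and no sort is described, so that glial cells can grow beside the neurons. At day in vitro 10 (DIV10) the cultures received lipid nanoparticles with the mimic (6 libraries) or with the negative control (6 libraries), and they were harvested after 48 h at DIV12. Per the methods of the study, ApoE4 was added with the nanoparticles, in both groups. There was no untreated group. The sources do not say whether the 6 libraries of a group came from separate preparations, so p-values measure the spread between these libraries, which may be technical. Poly(A) RNA was sequenced as 50 bp single-end reads, and the mature microRNA itself was not measured.

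The oligonucleotides are shown first because their seeds, bases 2 to 8 and in capitals, decide which transcripts they can pair with. The mimic strand is identical to the mature mouse miR-148a-3p of RefSeq. The control is the negative control for mimics in the reagent list of the study, while other descriptions call it a siRNA or scrambled RNA, so its identity in these cultures is less sure.
miR-148a-3p mimic: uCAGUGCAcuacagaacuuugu
negative control: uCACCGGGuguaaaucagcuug

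Total counts ranged from 20018234 to 37149112 in the control libraries and from 28316456 to 33808253 in the mimic libraries, with control replicate 1 the shallowest. That library was the highest of the 6 controls in 14 of the 38 members and in 7 of the 13 members of the ATF4 branch, and the lowest of them in 9 members, 4 of the XBP1 branch, so values that moved most without it are also given without it. Neuronal markers such as Map2 and Tubb3 were well expressed, with a summed level of 7606 to 8352 CPM (counts per 1000000 counts of the scaled library) over the 12 listed neuronal markers in the controls and of 7599 to 7960 CPM in the mimic libraries (1 called higher, Gad2, and 3 called lower, Tubb3, Stmn2 and Neurod2). Glial and dividing cells were present too, and many of their markers also differed between the groups. The summed level of 9 astrocyte markers ran from 5162 to 5680 CPM in controls and from 6255 to 6692 CPM with the mimic (6 called higher, 1 called lower, Gfap). That of 8 markers of the oligodendrocyte lineage ran from 392.7 to 681 CPM and from 767.7 to 962.9 CPM (5 higher, 1 lower), where the 681 CPM was control replicate 1 and the other controls reached 422 CPM. That of 9 genes of cycling cells ran from 221 to 257 CPM and from 423 to 453 CPM (9 higher). The 8 microglial markers summed to 22.0 to 25.9 CPM in controls and 20.9 to 29.4 CPM with the mimic (1 lower), and the 9 fibroblast and mural markers to 203 to 271 CPM and 103 to 231 CPM (1 higher, 2 lower). The 4 tested endothelial markers of the 5 listed summed to 1.41 to 2.30 CPM and 1.01 to 1.72 CPM (1 lower). Cldn5, at 0 in every control library, was not tested and is not in that sum. The part of these cell types in the results below was not tested, and in RNA of whole cultures fewer cells of a type and less RNA per cell cannot be told apart.

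Of the 38 members, 11 were higher and 2 were lower with the mimic at an adjusted p under 0.05 (edgeR quasi-likelihood test, adjusted over all genes tested), and 25 did not pass. The genes that rose were Hspa5, Pdia6 and Creld2 of the ATF6 branch, Edem1 and Dnajb11 of the XBP1 branch, and Atf4, Trib3, Chac1, Psat1, Nupr1 and Ddit4 of the ATF4 branch. Pdia4 and Cebpb fell. Over all genes tested 22.2% were called, 11.5% higher and 10.7% lower. The 28.9% of members called higher stood above the background share and the 5.26% called lower below it. The members were chosen with earlier results of these data known, so this difference is not independent evidence. The median log2 fold change was 0.082 over the members and -0.012 over all genes tested. The groups of 6 libraries did not overlap in 6 members, each with the mimic libraries above the controls, and in 13.3% of all genes tested, of which 7.43% had the mimic above and 5.83% had it below. Most changes were small: the median size among the called members was 0.27 on the log2 scale, against 0.30 among all called genes.

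By branch, the ATF4 genes gave the most calls. In the ATF4 branch 6 of 13 genes were called higher and 1 lower, with a median log2 fold change of 0.19. In the ATF6 branch 3 of 13 were higher and 1 lower, with a median of 0.017, and in the XBP1 branch 2 of 11 were higher and none lower, with a median of 0.076. At an unadjusted p under 0.05, 14 members were higher and 2 lower, but the share of all genes at that threshold was not counted. Whether the branches differ from each other was not tested.

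**Figure D1:**
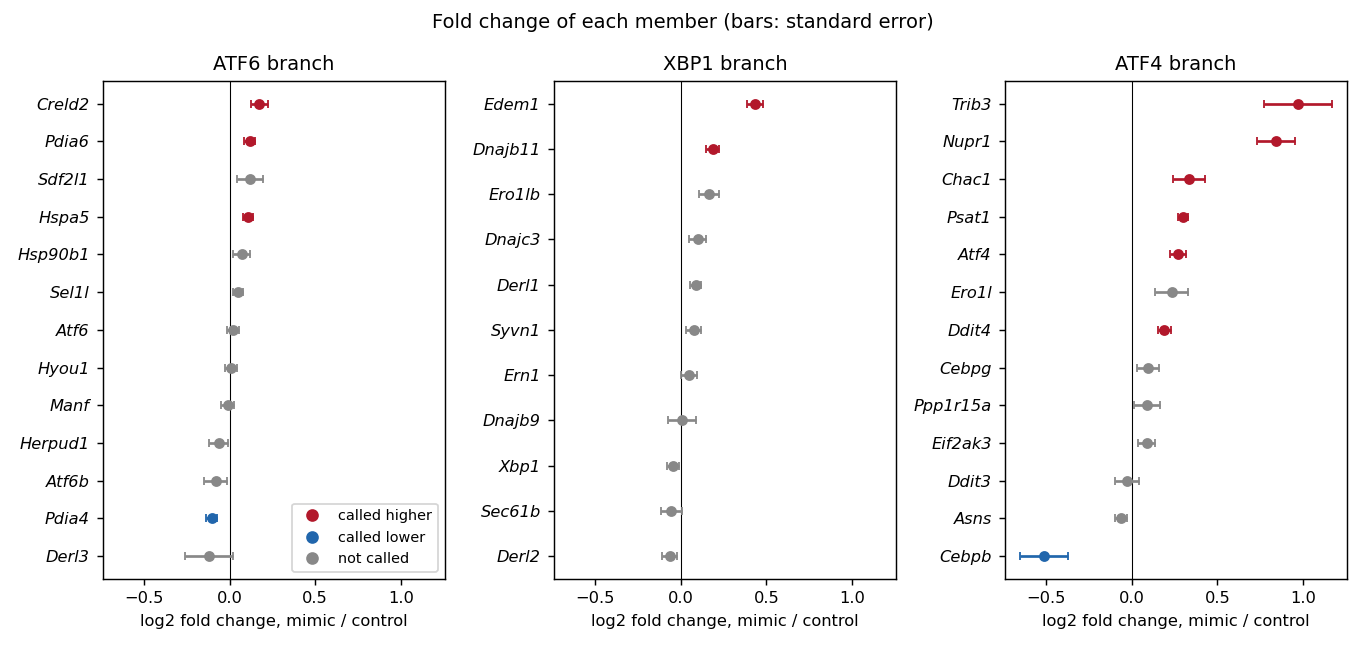
Log2 fold change of the 37 members of the ATF6, XBP1 and ATF4 branches (horizontal axis, mimic over control, 6 libraries each), ordered within each branch, with bars for the standard error of the edgeR fit and color for the call at an adjusted p under 0.05. Called genes of the ATF6 branch lie between -0.11 and 0.17, while Trib3 (0.97) and Nupr1 (0.84) of the ATF4 branch lie farthest to the right and Cebpb (-0.51) farthest to the left.

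Among the sensors and transcription factors at the head of the 3 branches, Atf4 alone was called. Atf6 had 62.4, 67.4 and 69.5 CPM as the lowest, median and highest of the controls and 65.5, 67.6 and 69.5 CPM with the mimic, a log2 fold change of 0.017 ± 0.036 (SE; adjusted p = 0.795, edgeR). Its relative Atf6b had a log2 fold change of -0.082 ± 0.066, which ran from -0.11 to -0.012 with 1 library left out. Control replicate 1 held the highest Atf6b level, 152.5 CPM, and the next control had 130.7 CPM. For Ern1, the IRE1 sensor, the lowest, median and highest levels were 17.4, 18.6 and 19.2 CPM in controls and 18.2, 18.8 and 20.1 CPM with the mimic. The groups overlapped for each of these sensors, and the Ern1 log2 fold change was 0.049 ± 0.045 (adjusted p = 0.493, edgeR).

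Xbp1 was measured at 74.0, 75.8 and 80.9 CPM in controls and at 71.5, 74.6 and 77.0 CPM with the mimic, again with overlapping groups (log2 fold change -0.045 ± 0.034, edgeR adjusted p = 0.389). Eif2ak3, the PERK kinase, went from 23.8, 25.3 and 28.5 CPM to 25.8, 26.8 and 29.1 CPM (log2 fold change 0.088 ± 0.049, edgeR adjusted p = 0.239). Without control replicate 1, which had the highest control value of 28.5 CPM, Eif2ak3 passed the threshold. Counts per gene show neither the splicing of Xbp1, nor the cutting of ATF6, nor the phosphorylation of eIF2 or the translation of Atf4, so these data bear on transcript levels alone. Creb3l2 was not called (log2 fold change 0.053 ± 0.044, edgeR adjusted p = 0.452).

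Atf4, the transcription factor of the integrated stress response (chr15:80255184-80257541, GRCm38, plus strand), rose by a fold of 1.21. Its lowest, median and highest levels were 167.0, 169 and 201.5 CPM in the controls and 197.0, 206.0 and 228 CPM with the mimic (log2 fold change 0.27 ± 0.049, edgeR adjusted p = 0.000589). The groups touched only through control replicate 1, at 201.5 CPM, since the next highest control had 173.0 CPM and lay below every mimic library. Ddit3, which encodes the ATF4 target CHOP, a factor tied to cell death under lasting ER stress, was not called, with 19.3, 20.9 and 26.4 CPM in controls and 19.2, 21.6 and 23.6 CPM with the mimic (log2 fold change -0.027 ± 0.072, edgeR adjusted p = 0.842). Its value was the highest of all 12 libraries in control replicate 1. The exons of Ddit3 share 68 bases with those of Mars on the other strand, and the strand setting of the count is not given in the sources used here.

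Trib3, a pseudokinase that restrains ATF4 and CHOP activity (chr2:152337422-152344032, minus strand), had the largest fold change of the members, 1.96. It was scarce, with 0.977, 1.17 and 1.57 CPM as the lowest, median and highest control and 1.28, 2.31 and 3.30 CPM with the mimic (log2 fold change 0.97 ± 0.20, edgeR adjusted p = 0.00159). The mimic libraries scattered widely, and the lowest of them lay below 2 of the controls. Nupr1, a small stress-induced chromatin protein (chr7:126623249-126630861, minus strand), rose by a fold of 1.79 without overlap, from 2.10, 2.46 and 3.02 CPM to 3.74, 4.39 and 5.29 CPM (log2 fold change 0.84 ± 0.11, edgeR adjusted p = 3.02e-05).

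Chac1, an enzyme that degrades glutathione (chr2:119351229-119354381, plus strand), had 7.89, 9.07 and 12.8 CPM in the controls and 11.01, 11.4 and 12.9 CPM with the mimic (log2 fold change 0.33 ± 0.093, edgeR adjusted p = 0.015). Control replicate 1 again held the top control value, and the other 5 controls, up to 9.56 CPM, lay below all mimic libraries. Ddit4, an inhibitor of the mTORC1 growth kinase (chr10:59949669-59951834, minus strand), had 90.0, 94.2 and 104.9 CPM in controls and 104.9, 108.0 and 113 CPM with the mimic (log2 fold change 0.19 ± 0.038, edgeR adjusted p = 0.00125). Without control replicate 1 the Ddit4 groups did not overlap. Psat1, an enzyme of serine synthesis (chr19:15904678-15947337, minus strand), rose without overlap from 241.5, 253 and 266 CPM to 303, 312 and 320 CPM (log2 fold change 0.30 ± 0.032, edgeR adjusted p = 2.2e-06).

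The other members of the ATF4 branch were not called higher. Asns, which makes asparagine and is a standard ATF4 target, had 133.0, 139.3 and 145.1 CPM as the lowest, median and highest control and 126.7, 134.5 and 139.3 CPM with the mimic, a log2 fold change of -0.063 ± 0.035 (edgeR adjusted p = 0.230). Ppp1r15a, which brings the phosphatase back to eIF2, was at 0.089 ± 0.076 and Cebpg, a dimer partner of ATF4, at 0.093 ± 0.064. Control replicate 1 had the highest Ppp1r15a level, 29.3 CPM, and without that library Ppp1r15a passed the threshold. Ero1l, an oxidase for disulfide bonds, was at 0.23 ± 0.098, with 1 mimic library at 37.8 CPM and the others between 24.5 and 29.3 CPM. Cebpb, another dimer partner (chr2:167688915-167690418, plus strand), fell from 2.34, 2.66 and 3.48 CPM to 1.48, 1.88 and 2.47 CPM with overlapping groups (log2 fold change -0.51 ± 0.14, edgeR adjusted p = 0.0141). Cebpb was scarce, with a mean of 68.9 counts, and 312 bases of its exon lie opposite the more abundant Tmem189.

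**Figure D2:**
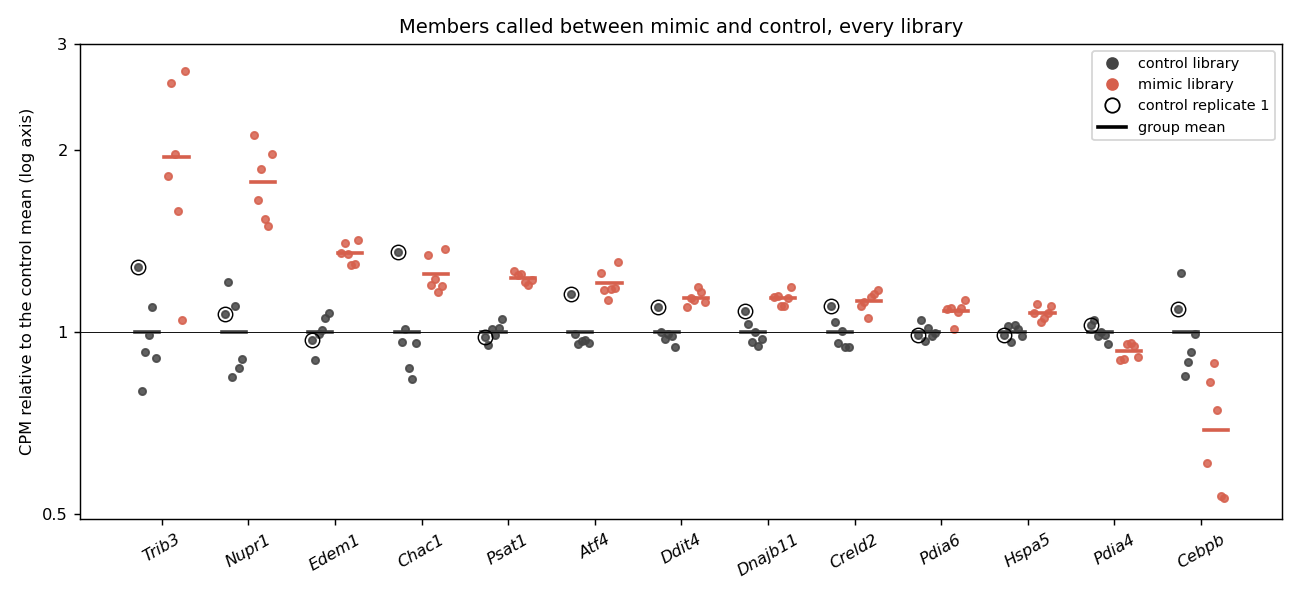
CPM of the 13 called members in every library, each divided by the mean of the 6 control libraries (vertical log axis), with bars for the group means and a ring around control replicate 1. The 6 mimic libraries lie above all controls for Nupr1, Edem1, Psat1, Dnajb11 and Hspa5, while in Chac1, Atf4, Ddit4 and Creld2 the ringed control alone reaches into the mimic libraries.

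Of the ATF6 branch, which holds the main chaperones of the ER lumen, 3 genes rose by small amounts. Hspa5, the chaperone BiP that also holds the 3 sensors inactive (chr2:34771970-34777547, plus strand), rose by a fold of 1.08. Its lowest, median and highest levels were 458.5, 477 and 490 CPM in controls and 495, 512 and 530 CPM with the mimic, without overlap (log2 fold change 0.11 ± 0.031, edgeR adjusted p = 0.0179). Per kilobase of exon it was the most abundant member, at a mean of 113 RPKM in controls and 121 RPKM with the mimic, and Trib3 the least abundant in controls, at 0.575 RPKM.

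Pdia6, a disulfide isomerase (chr12:17266545-17284770, plus strand), had 172, 177 and 187 CPM in the controls and 180.0, 195 and 201 CPM with the mimic (log2 fold change 0.12 ± 0.034, edgeR adjusted p = 0.0186), and the lowest mimic library lay below 2 controls. Creld2, a secreted ER stress protein (chr15:88819646-88826683, plus strand), had 17.5, 18.2 and 20.5 CPM and then 19.6, 21.0 and 21.8 CPM (log2 fold change 0.17 ± 0.048, edgeR adjusted p = 0.0138). One library, control replicate 1, made the Creld2 groups overlap. Pdia4, another disulfide isomerase (chr6:47796141-47813430, minus strand), fell from 88.0, 91.4 and 96.2 CPM to 82.9, 85.5 and 88.4 CPM, with overlap (log2 fold change -0.11 ± 0.034, edgeR adjusted p = 0.032). The calls of both disulfide isomerases ended under some alternatives, that of Pdia4 in 7 of 19 and that of Pdia6 in 2.

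The remaining genes of the branch were not called, although the fold changes of Sdf2l1 and Derl3 were as large as those of called genes, with larger errors. Among the chaperones, the log2 fold changes were 0.069 ± 0.049 for Hsp90b1, the ER form of HSP90, and 0.0069 ± 0.036 for Hyou1, which exchanges the nucleotide of BiP. They were 0.12 ± 0.076 for Sdf2l1, a partner of BiP and its cofactors, and -0.012 ± 0.038 for Manf, a secreted neurotrophic protein. Among the degradation factors they were -0.065 ± 0.055 for Herpud1, 0.050 ± 0.030 for Sel1l and -0.12 ± 0.14 for the scarce Derl3. Herpud1 had 46.5 CPM in control replicate 1 and 36.1 to 38.3 CPM in the other controls, and Hsp90b1 had 295.7 CPM in that library and 340.6 to 378.5 CPM in the others.

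In the XBP1 branch, Edem1, which passes misfolded glycoproteins on to degradation (chr6:108828641-108859356, plus strand), rose by a fold of 1.35. Its lowest, median and highest levels were 25.3, 28.1 and 30.3 CPM in the controls and 36.4, 37.98 and 40.0 CPM with the mimic (log2 fold change 0.43 ± 0.046, edgeR adjusted p = 2.25e-06), so that the groups were well apart. Dnajb11, a cochaperone of BiP (chr16:22857845-22879634, plus strand), rose from 72.0, 75.0 and 82.4 CPM to 83.9, 86.6 and 90.3 CPM, also without overlap (log2 fold change 0.19 ± 0.037, edgeR adjusted p = 0.00139).

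Derl1, a channel component for the export of misfolded proteins, had groups that did not overlap (61.1 to 65.9 CPM and 66.2 to 70.1 CPM), yet it missed the threshold (log2 fold change 0.088 ± 0.032, edgeR adjusted p = 0.0623). The oxidase Ero1lb came close too, at 0.16 ± 0.060 (edgeR adjusted p = 0.0598). The log2 fold changes were 0.099 ± 0.050 for the PKR inhibitor and cochaperone Dnajc3, 0.076 ± 0.043 for the ubiquitin ligase Syvn1, 0.0069 ± 0.084 for the cochaperone Dnajb9, -0.055 ± 0.060 for the translocon subunit Sec61b and -0.063 ± 0.044 for Derl2. None of these 5 was called. Exons of Syvn1 share 91 bases with Mrpl49 on the other strand and those of Derl2 share 231 bases with Mis12, so that reads of these pairs may be mixed. Dnajb9 is a widely used readout of IRE1 activity, and its fold change had a different sign in 6 of the 19 alternative settings tried.

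Averaged over a branch, each library can be placed against the mean of the controls on a log2(CPM + 1) scale. In the ATF4 branch the mimic libraries deviated by 0.071 to 0.25 and control replicate 1 by 0.11, above mimic replicate 5, while the other 5 controls ran from -0.042 to 0.016. In the XBP1 branch all 6 mimic libraries (0.055 to 0.12) lay above all controls (-0.042 to 0.041). In the ATF6 branch the groups overlapped, with 0.0021 to 0.043 for the mimic and -0.031 to 0.045 for the controls. These means describe the libraries and were not tested.

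**Figure D3:**
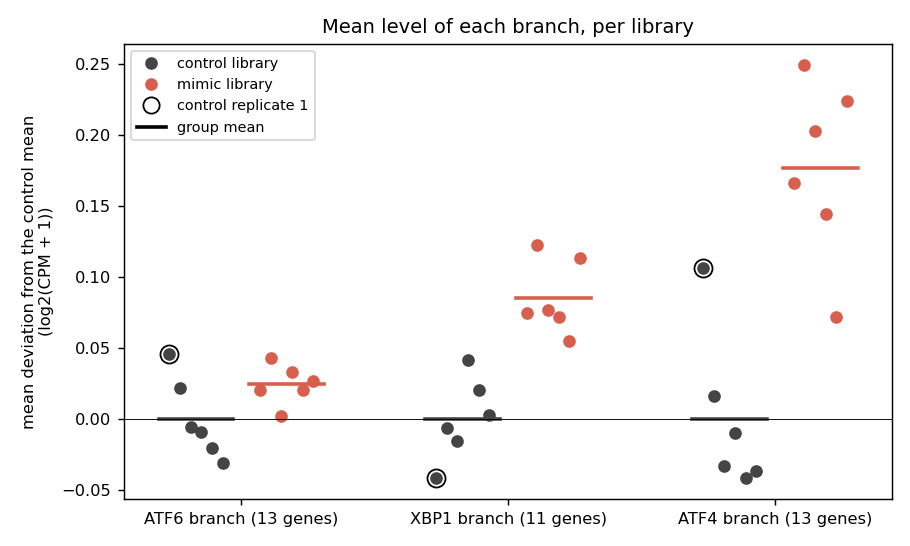
Mean deviation of each library from the control mean over the genes of a branch (vertical axis, log2(CPM + 1)), with bars for the group means and a ring around control replicate 1. The ATF6 groups overlap between 0.0021 and 0.043, the XBP1 groups do not overlap, and in the ATF4 branch the ringed control at 0.11 lies above the lowest mimic library at 0.071.

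Pairing of the mimic with these transcripts was examined through matches to its seed in the longest annotated 3' untranslated region of each gene (8-base matches, or 7-base matches to bases 2 to 8 or to bases 2 to 7 followed by A). Such a match stood in 9 of the 38 members (23.7%), close to the 21.9% of the 15082 tested genes with an annotated region. Hspa5, Edem1 and Ddit4 were called higher, none of the 9 was called lower, and Atf6, Hsp90b1, Manf, Ern1, Ddit3 and Creb3l2 were not called. Of all 3307 tested genes with a match, 11.7% were called higher and 19.2% lower, and 9 members are too few to set against these shares. The matches of the 3 genes that rose are shown with flanking bases, on the strand of the transcript and with the match in capitals, because they are the called members with a match.
Hspa5 (chr2:34776114-34776130): gTGCACTGAtctgctag
Edem1, first (chr6:108856811-108856833): ggcctcctTGCACTGggacaggc
Edem1, second (chr6:108858615-108858637): gtagactcTGCACTGgacatccc
Ddit4 (chr10:59950155-59950177): agctggtcTGCACTGgcctctgc

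The match in Hspa5 began at base 2 of its untranslated region, right behind the stop codon. Ern1 held an overlapping pair of matches, one of them of 8 bases, Ddit3 also held an overlapping pair, and Creb3l2 held 3. The seed of the control oligonucleotide had a match in 2 members, Edem1 and Ddit4 (5.26%, against 4.42% of all genes), both also with a match to the mimic. Both were called higher, as were 23.6% of the 666 tested genes with a match to the control seed (9.91% lower). A match is a stretch of letters and does not show that the oligonucleotide acts there.

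The promoters of 34 members were found in the RefSeq table (GRCm38.p6, 250 bases before to 50 after the annotated start), and they were searched on both strands for the response elements of the 3 branches. The ER stress response element (ERSE: CCAAT, any 9 bases, CCACG) binds ATF6 and XBP1 together with NF-Y, and ERSE-II (ATTGG, any base, CCACG) binds the same factors. The CARE element (TGATGNAAN) binds ATF4 with a C/EBP partner. Derl2 and Psat1 had 2 promoters each, so the counts below are of genes, while the shares are of promoters. ERSE was found for 5 of 10 genes of the ATF6 branch (Hspa5, Hsp90b1, Pdia6, Creld2 and Derl3), for 3 of 10 of the XBP1 branch (Dnajc3, Syvn1 and Ero1lb) and for 0 of 13 of the ATF4 branch, against 0.119% of all 32851 promoters. ERSE-II was found in Herpud1 and Dnajb11 (0.0365% of all promoters), and the UPRE of XBP1 (TGACGTGG) in no member (0.676%). CARE was found for 4 of 13 genes of the ATF4 branch, Trib3, Chac1, Nupr1 and Asns, and for Herpud1, against 3.95% of all promoters. Both ERSE forms contain CCACG, which by itself was found for 27 of the 34 members and in 32.8% of all promoters.

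The stretches around the elements in called members are shown, 5' to 3' on the strand of the gene with the element in capitals, together with that of Asns, the member of the ATF4 branch with a CARE that was not called. An element in the other orientation appears as its reverse complement.
Hspa5, ERSE (chr2:34772005-34772063): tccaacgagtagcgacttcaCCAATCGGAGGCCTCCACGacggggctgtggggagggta
Pdia6, ERSE (chr12:17266471-17266529): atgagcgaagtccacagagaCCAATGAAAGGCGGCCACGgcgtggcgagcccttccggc
Creld2, ERSE, reverse (chr15:88819500-88819558): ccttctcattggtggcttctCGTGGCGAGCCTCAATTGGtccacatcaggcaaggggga
Dnajb11, ERSE-II (chr16:22857832-22857882): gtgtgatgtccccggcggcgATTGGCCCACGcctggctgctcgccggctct
Trib3, CARE, reverse (chr2:152344019-152344067): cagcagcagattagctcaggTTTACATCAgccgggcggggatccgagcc
Chac1, CARE, reverse (chr2:119351028-119351076): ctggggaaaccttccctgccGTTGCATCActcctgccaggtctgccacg
Nupr1, CARE, reverse (chr7:126625553-126625601): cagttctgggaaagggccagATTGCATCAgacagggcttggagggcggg
Asns, CARE (chr6:7693204-7693252): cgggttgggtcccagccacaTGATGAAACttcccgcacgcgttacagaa

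The elements began 65 bases upstream of the annotated start in Hspa5, 98 in Pdia6, 126 in Creld2, 194 in Chac1, 111 in Nupr1 and 23 in Asns, and 7 and 13 bases downstream in Dnajb11 and Trib3. In the ATF6 branch 3 of the 5 genes with an ERSE rose (Hspa5, Pdia6 and Creld2), and Hsp90b1, which holds a pair of them, and Derl3 were not called. In the XBP1 branch none of the 3 genes with an ERSE was called. In the ATF4 branch 3 of the 4 genes with a CARE rose. Of all tested genes matched to the promoter table, 6 of the 22 with an ERSE (27.3%, members included) and 58 of the 361 with a CARE (16.1%) were called higher, and the members with an element are too few to set against these shares. Atf4, Psat1 and Ddit4 rose without a CARE in this window, and sequence outside it was not searched.

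Beyond the members, 112 other genes of these pathways were listed by function, of which 109 were tested (Srp54a, Fgf21 and Ern2 did not pass the filter on low counts). Of these, 34 were higher and 8 lower (31.2% and 7.34%, against 11.5% and 10.7% of all genes tested), with a median log2 fold change of 0.071. These genes too were chosen with earlier results of these data known. Amino acid synthesis and transport, a large group of ATF4 targets, had 12 of 18 genes higher (66.7%) and 2 lower (11.1%), with a median of 0.27. The summed level of this group was 1325 CPM in control replicate 1, close to the lowest mimic library at 1332 CPM. The other controls reached 1155 CPM. Pck2, a mitochondrial enzyme of gluconeogenesis, went from 10.1 ± 1.47 CPM in controls to 15.9 ± 0.803 CPM with the mimic (SD over 6 libraries per group), a log2 fold change of 0.67 (edgeR adjusted p = 4.24e-06). Slc7a5, the light chain of the large neutral amino acid transporter, went from 228 ± 29.1 to 352 ± 16.4 CPM (log2 fold change 0.63, edgeR adjusted p = 2.25e-06). Cth, which makes cysteine, fell by 0.32 on the log2 scale and the transporter Slc1a4 by 0.31 on the same scale. Among 13 other ATF4-linked regulators and secreted factors, 6 rose and 1 fell, with Eif4ebp1, an inhibitor of translation, at 0.89, the secreted stress factor Gdf15 at 0.83 and the cell death gene Bbc3 at -0.21. Their summed level was 421 CPM in control replicate 1, at most 368.8 CPM in the other controls and at least 424.2 CPM with the mimic.

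The aminoacyl-tRNA synthetases, many of which are ATF4 targets as well, had 1 of 12 genes higher (Iars, log2 fold change 0.21, edgeR adjusted p = 0.000136), none lower and a median of 0.027. Their share of calls, 8.33%, lay below the 22.2% of all genes. Of the 18 tested genes of ER folding and quality control, 7 rose, led by the prolyl isomerase Ppic (0.35) and the disulfide isomerase Txndc5 (0.34), and the lectin pathway genes Pdia3 (-0.24) and Calr (-0.098) fell. Of 25 genes of ER degradation and translocation, 6 rose, led by the signal peptidase subunit Spcs3 (0.43) and the signal recognition particle receptor Srpr (0.22), and the lectin Os9 fell (-0.19). Of 23 kinases, eIF2 subunits and sensors, 2 rose and 2 fell. They were Mbtps1, the protease that cuts ATF6 (0.27), Ppp1r15b, the constitutive subunit of the eIF2 phosphatase (0.18), the ER membrane protein Wfs1 (-0.52) and the cell death gene Bak1 (-0.15).

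**Figure D4:**
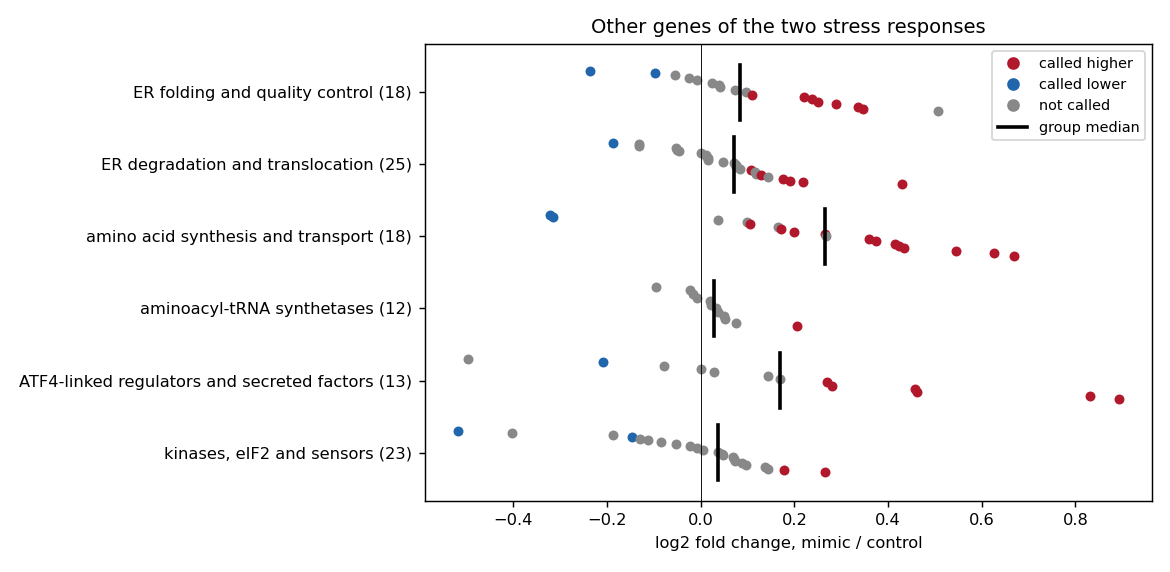
Log2 fold change (horizontal axis, mimic over control) of the 109 other pathway genes tested, 1 point per gene in 6 functional groups with the number tested in parentheses, color for the call at an adjusted p under 0.05 and a black bar for the group median. The medians of amino acid synthesis and transport (0.27) and of the ATF4-linked regulators (0.17) lie to the right of those of the other groups, which run from 0.027 to 0.084.

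The number of calls moved with the threshold and with single libraries. Requiring a fold of more than 1.2 in place of any difference left 3 members higher, Edem1, Trib3 and Nupr1, and none lower. The share of all genes called was not counted for that setting. Without control replicate 1, 14 members were higher, with Derl1, Eif2ak3 and Ppp1r15a added (8 in the ATF4 branch in place of 6), and 14.4% of all genes tested in that fit were called higher. Of the other pathway genes 44 were then higher in place of 34, among them 13 of 18 of amino acid synthesis and transport, 8 of 13 ATF4-linked regulators, 9 of 25 of ER degradation and translocation, 5 of 23 kinases, eIF2 subunits and sensors, and 2 of 12 aminoacyl-tRNA synthetases. The groups then did not overlap in 10 of the 38 members, and 9 of the 13 called members were among them, against 5 with that library. The share of all genes without overlap rose as well, from 13.3% to 18.0%, and it was at most 14.5% when another control was left out. Pdia4 lost its call when control replicate 2 or mimic replicate 1, 2 or 6 was left out, and Pdia6 without mimic replicate 6 (edgeR adjusted p = 0.0566).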

How the data were processed

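RNA was measured in 6 control and 6 mimic libraries, grouped by the sample labels. Per the labels, reads were checked with FastQC 0.11.5, aligned with STAR 2.5.2b to mm10 and counted per gene with featureCounts (Subread 1.5.1). The strand setting is not given in the sources used here. The values used are the raw read counts deposited by the authors, and a deposited table of normalized values was not used.

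A gene entered the test when 6 of the 12 libraries (50%) had 5 or more counts, and was tested with the quasi-likelihood test of edgeR 4.0.16 (R 4.3.3, TMM scaling, robust fit, no covariate), with Benjamini-Hochberg adjustment over all genes tested and a threshold of 0.05. The SE was taken as the absolute log2 fold change over the root of the F statistic. CPM use the TMM-scaled library sizes, and RPKM divide CPM by the summed exon length of GENCODE M21 (GRCm38, the mm10 build), which also gave symbols and positions and lists Mars1 as Mars. The test was tested on simulated counts. The fit was repeated under 19 alternatives, among them DESeq2 1.42.0.

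The members and gene lists were chosen with earlier results of these data known. Values are given for every called member and for the sensors and factors, fold changes for the other members, and of the other lists up to 2 called genes in each direction. Mean counts per library ran from 35.2 (Derl3) to 14775 (Hspa5), and the spread between libraries adds to the counting error in each SE.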

Additional observations from a re-analysis of the deposited data

Results flagged for a closer look

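Each of the 38 members was examined in both groups for a library set apart from the other 5 by Dixon's test at the 95% level, and 7 of the 76 sets of values had one, where chance gives 3.8. Control replicate 1 was set apart in 4 of them, each time as the highest control. It had 201.5 CPM of Atf4 against 167.0 to 173.0 CPM in the other controls, 12.8 CPM of Chac1 against 7.89 to 9.56 CPM, 104.9 CPM of Ddit4 against 90.0 to 95.3 CPM, and 46.5 CPM of Herpud1 against 36.1 to 38.3 CPM. Mimic replicate 2 was set apart in Derl1, with 70.1 CPM against 66.2 to 67.3 CPM, and in Ero1l, with 37.8 CPM against 24.5 to 29.3 CPM. Mimic replicate 3 was the lowest mimic library in Herpud1, with 35.2 CPM against 36.6 to 37.4 CPM.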

How the results depend on the processing

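The calls of the members, of the branches and of the other pathway genes in total, and the fold changes of the members, were recomputed under 19 alternatives. Marker sums, branch means per library and the shares for seeds and promoters were not. None of the 13 called members changed sign in any of them, and Edem1, Trib3 and Nupr1 kept their call in all. Atf4, Chac1, Psat1, Ddit4, Cebpb, Creld2 and Dnajb11 lost it only when a fold above 1.2 was required, and Hspa5 also without the filter on low counts. With the fold of 1.2, 3 members were higher and 0 lower (ATF6 branch 0 and 0, XBP1 branch 1 higher, ATF4 branch 2 and 0), and of the other pathway genes 7 were higher and 1 lower. Without the low-count filter 1 member was lower, and 0 in the ATF6 branch. In the XBP1 branch 4 genes were higher with at least 10 counts in every library, without control libraries 1 and 2, and in DESeq2. Leaving out 1 library at a time gave 10 to 14 members higher and 1 to 2 lower, 0 to 1 lower in the ATF6 branch, 2 to 4 higher in the XBP1 branch, 6 to 8 higher in the ATF4 branch and, of the other pathway genes, 33 to 44 higher and 5 to 8 lower. Without control libraries 1 and 2, 15 members and 47 other pathway genes were higher. The share of all genes called was counted only for the main fit and the fit without control replicate 1. The other counts here therefore stand without a background.

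Of the 25 members not called, 6 passed under an alternative and 7 changed sign. Without control libraries 1 and 2, the log2 fold change was -0.019 for Atf6, 0.030 for Atf6b, 0.0014 for Herpud1, 0.014 for Manf, -0.087 for Dnajb9 and 0.070 for Ddit3. With 1 library left out it ran from -0.00080 to 0.029 for Atf6, -0.061 to 0.029 for Ddit3, -0.037 to 0.067 for Dnajb9, -0.0068 to 0.026 for Hyou1 and -0.028 to 0.0082 for Manf. The causes were not tested.

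Same-numbered control and mimic libraries did not deviate together (correlations from -0.11 to 0.23, and 0 of 6 controls best matched by their own number). This cannot show whether libraries of the same number came from the same preparation, and the main fit left them unpaired. With the replicate block, 11 members were higher and 1 lower, and 0 lower in the ATF6 branch. Counting error is largest in the scarce members, such as Derl3, Trib3 and Cebpb.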
